A study of Arabidopsis thaliana with 10 samples.

Results

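TUA1 and AGL30 are a pair of Arabidopsis thaliana genes known from pollen, and each was measured by 1 probe set of the array, TUA1 (AT1G64740) from chromosome 1 and AGL30 (AT2G03060) from chromosome 2. They were chosen by their rise after wild-type KLU was induced, measured against uninduced plants over both lines. Of the other 17 pollen genes measured, 0 passed the test as higher. Among all probe sets 1.62% passed it in either direction at 90 min and 6.82% at 240 min, and 0 of 17 is near these shares. TUA1 and AGL30 are 2 of 13356 genes that a probe set names alone, on an array with 22746 probe sets tested. Their probe sets are all those that the gene table assigns to either symbol alone.

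TUA1 encodes an alpha-tubulin, which pairs with beta-tubulin to build microtubules, and it is known for its expression in pollen. AGL30 encodes a MADS box transcription factor of the MIKC* class. Proteins of this class bind DNA as heterodimers, in pollen mainly AGL30 or AGL65 with AGL66 or AGL104, and they are known for switching on genes of the maturing pollen grain.

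The study used Affymetrix arrays on RNA of pooled inflorescences with young buds. All plants carried the klu-2 allele and an ethanol-inducible system in which 35S drives AlcR and AlcR acts on the alcA promoter. The promoter drove KLU (CYP78A5), a cytochrome P450, in lines 3-1 and 4-3, or a mutant KLU protein in lines 1-5 and 3-2. Wild-type KLU lines were sampled at 0, 90 and 240 min of ethanol vapour and mutant KLU lines at 90 and 240 min, 1 array for each line and time and 10 in all. Each line is 1 independently transformed line, and the 2 lines of a construct are its replicates. The 35S promoter is broadly active and marks no one cell type, and no uninduced array of the mutant lines was analysed here. Every value is a log2 intensity made by the authors with RMA, and the array medians lay between 5.94 and 6.06.

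With wild-type KLU, TUA1 was high at both induced times in both lines. In the order 0, 90 and 240 min it read 8.24, 10.49 and 10.11 in line 3-1. In line 4-3 it read 8.09, 10.42 and 10.19. The mutant KLU arrays gave 8.89 (90 min) and 8.45 (240 min) for line 1-5. For line 3-2 they gave 9.35 and 8.64. The 4 arrays with induced wild-type KLU were the highest of the 10, as for 3.3% of all probe sets, and the uninduced arrays were the lowest. The order of the group means was wild-type KLU at 90 min, wild-type KLU at 240 min, mutant KLU at 90 min, mutant KLU at 240 min and uninduced, and no neighbouring groups in that order overlapped. The share of all probe sets with this order was not counted. It follows in part from the choice of TUA1 by its rise.

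AGL30 had the same split with a wider spread between lines. In the order 0, 90 and 240 min it read 5.51, 7.08 and 7.09 in wild-type KLU line 3-1. In line 4-3 it read 4.96, 6.93 and 6.84. The mutant KLU arrays gave 5.39 (90 min) and 5.45 (240 min) for line 1-5. For line 3-2 they gave 5.98 and 5.80. The induced wild-type KLU arrays again lay above the other 6, as for 3.3% of all probe sets. The 2 induced wild-type groups overlapped each other, and both mutant groups overlapped each other and the uninduced arrays.

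**Figure D1:**
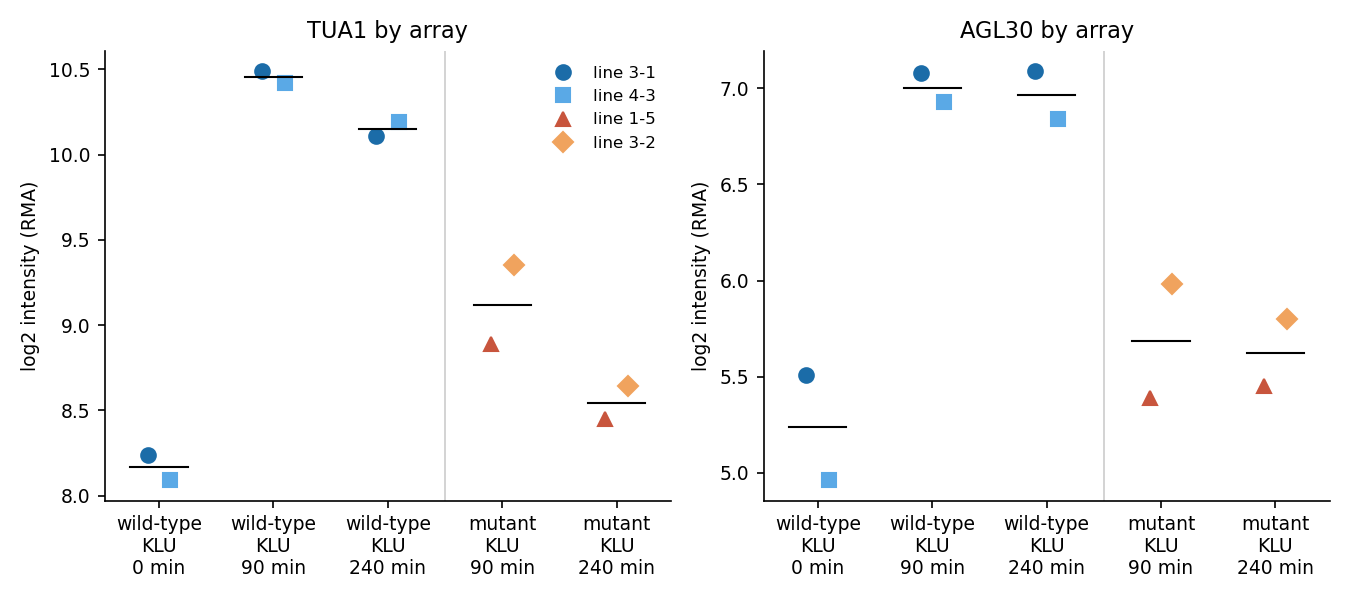
Log2 intensity of TUA1 (left) and AGL30 (right) on each of the 10 arrays, by construct and time, with a symbol for each line and a bar at the mean of each group. The induced wild-type KLU arrays lie between 10.11 and 10.49 for TUA1 and between 6.84 and 7.09 for AGL30, above all other arrays.

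The rises over the uninduced lines chose the genes, so they are a description and were not tested. TUA1 averaged 10.46 ± 0.05 at 90 min and 8.17 ± 0.11 in uninduced plants (SD, 2 arrays each), a log2 difference of 2.29 (SE 0.172) or 4.89-fold. At 240 min it averaged 10.15 ± 0.06, a log2 difference of 1.99 (SE 0.172) or 3.96-fold from the uninduced arrays. AGL30 averaged 7.01 ± 0.11 at 90 min and 5.24 ± 0.39 in uninduced plants, a log2 difference of 1.77 (SE 0.26) or 3.41-fold. At 240 min it averaged 6.97 ± 0.18, a log2 difference of 1.73 (SE 0.26) or 3.32-fold from the uninduced arrays. Both lines had these gains. Line 3-1 gained 2.25 log2 units of TUA1 by 90 min and line 4-3 gained 2.33, and for AGL30 the gains were 1.57 and 1.97. Such a rise joins induction, vapour and elapsed time. Both induced groups lay above the uninduced one without overlap for both genes, as 14.9% of all probe sets did at 90 min and 23.7% at 240 min.

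Setting wild-type beside mutant KLU asks what differs when both constructs had the same vapour and time. This shares the induced wild-type KLU arrays with the rises that chose the genes, so its p-values are not independent of that choice. The constructs also sat in different lines. At 240 min TUA1 averaged 10.15 ± 0.06 with wild-type KLU and 8.55 ± 0.13 with mutant KLU (SD, 2 arrays each). The log2 difference was 1.61 (SE 0.172, 95% interval 1.20 to 2.01), 3.04-fold, with an adjusted p of 0.014 in limma's moderated test, so TUA1 was higher with wild-type KLU. AGL30 averaged 6.97 ± 0.18 with wild-type KLU and 5.63 ± 0.25 with mutant KLU. Its log2 difference of 1.34 (SE 0.26, 95% interval 0.73 to 1.95), 2.53-fold, had an adjusted p of 0.0632 in limma's test. That p was 0.0454 with the line as a random block and 0.0415 with arrays centred on their medians. These 2 were the only passes among 7 alternatives that left out no single array, and with the compared groups alone it was 0.0981. So 1 of the 2 genes passed, where 1.13% of all probe sets did in either direction. That count is not independent of the choice of the genes either. Both wild-type KLU arrays lay above both mutant KLU arrays for both genes, as they did for 21% of all probe sets.

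The TUA1 call rested on each of the 4 arrays compared, and with these 4 alone in the fit limma's adjusted p was 0.0861. Limma's adjusted p for TUA1 was 0.0579 when wild-type KLU line 3-1 was left out at 240 min and 0.0915 when line 4-3 was. It was 0.0609 when mutant KLU line 3-2 was left out and 0.13 when line 1-5 was, with the lone array then assumed to vary like the other groups.

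At 90 min neither gene passed. TUA1 averaged 10.46 ± 0.05 with wild-type KLU and 9.12 ± 0.33 with mutant KLU, a log2 difference of 1.34 (SE 0.172, 95% interval 0.93 to 1.74) with an adjusted p of 0.072 in limma's test. AGL30 averaged 7.01 ± 0.11 with wild-type KLU and 5.69 ± 0.42 with mutant KLU, a log2 difference of 1.32 (SE 0.26, 95% interval 0.71 to 1.93) with an adjusted p of 0.139. Of all probe sets 0.0044% passed at this time, and 13.5% had both wild-type KLU arrays above both mutant KLU arrays, as both genes did. Without the mutant KLU array of line 3-2, the higher one for TUA1, the TUA1 difference was 1.57, and without that of line 1-5 it was 1.11. With the compared groups alone in the fit, limma's adjusted p for TUA1 was 0.593.

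An interaction term tested if the construct difference was another one at 240 min than at 90 min, and it was not past the threshold for either gene. It was 0.27 for TUA1 (95% interval -0.30 to 0.84) and 0.02 for AGL30 (95% interval -0.84 to 0.88), each with an adjusted p of 1 in limma's test. No probe set passed this test, and 603 had an unadjusted p under 0.05.

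The mutant KLU arrays were next compared with the uninduced arrays, which are also those of the rises that chose the genes. This sets vapour with mutant KLU beside no vapour in the wild-type KLU lines, so construct, line, vapour and elapsed time are joined. At 90 min TUA1 averaged 9.12 ± 0.33 with mutant KLU and 8.17 ± 0.11 in uninduced plants, a log2 difference of 0.96 (SE 0.172, 95% interval 0.55 to 1.36). Both mutant KLU arrays lay above both uninduced arrays, as for 14.9% of all probe sets, and limma's adjusted p was 0.178. At 240 min the TUA1 difference was 0.38 (95% interval -0.02 to 0.78, adjusted p = 0.675 in limma's test), with 8.45 and 8.64 under mutant KLU against 8.24 and 8.09 in uninduced plants, again without overlap, as for 16.5% of all probe sets. For AGL30 the differences were 0.45 at 90 min (95% interval -0.16 to 1.06, adjusted p = 0.861) and 0.39 at 240 min (95% interval -0.22 to 1.00, adjusted p = 0.829) in limma's test, and the arrays overlapped at both times. In these comparisons 0.0396% of all probe sets passed at 90 min and 0.154% at 240 min.

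Between the 2 induced times TUA1 was lower at 240 min in all 4 lines, and AGL30 differed by at most 0.18 in any line. The TUA1 arrays of the 2 times did not overlap, as was so in this direction for 16% of all probe sets with wild-type KLU and 13.8% with mutant KLU. TUA1 dropped by 0.38 log2 units in wild-type KLU line 3-1 and by 0.23 in line 4-3, a mean difference of -0.31 (95% interval -0.71 to 0.10, adjusted p = 0.616 in limma's test). With mutant KLU it dropped by 0.44 in line 1-5 and by 0.71 in line 3-2, a mean difference of -0.58 (95% interval -0.98 to -0.17, adjusted p = 1, unadjusted p = 0.011). For AGL30 the mean differences were -0.04 with wild-type KLU (95% interval -0.65 to 0.57) and -0.06 with mutant KLU (95% interval -0.67 to 0.55). None of these passed the threshold, and neither did any of the 22746 probe sets, of which 2313 with wild-type KLU and 490 with mutant KLU had an unadjusted p under 0.05 in limma's test.

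**Figure D2:**
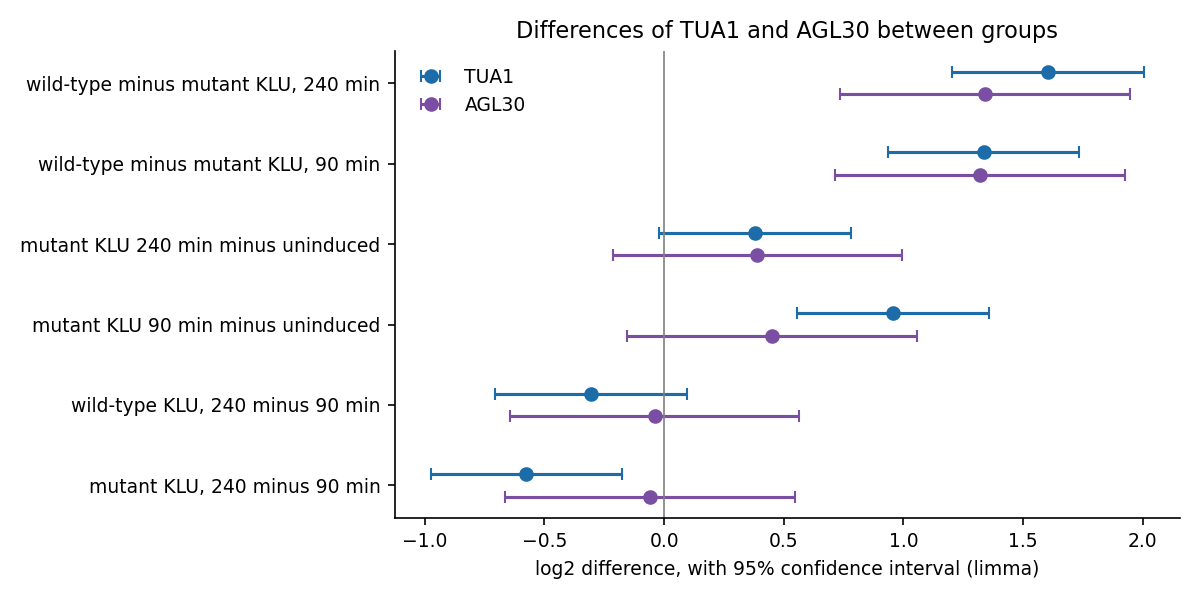
Log2 differences of TUA1 and AGL30 with 95% confidence intervals from limma, for 6 comparisons of 2 arrays against 2. The intervals of both wild-type against mutant KLU comparisons lie above 0 for both genes, while the AGL30 intervals for mutant KLU against uninduced plants and between times include 0.

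The other tubulin genes were set beside TUA1. Of 6 alpha-tubulin, 9 beta-tubulin, 7 gamma-tubulin or gamma-tubulin complex and 6 tubulin-folding genes listed, TUA1, TUA6, TUB1, TUB5, TUB6, TUB7, TUB9 and the folding cofactor genes POR and PFI were measured under their names. Of the 8 probe sets besides TUA1, 0 passed limma's test in each of 3 comparisons, which were induced wild-type KLU against uninduced plants at both times and against mutant KLU at 240 min. The share of all probe sets passing in these was 1.62%, 6.82% and 1.13%, in the same order. The number of the 8 with an unadjusted p under 0.05 was 0, 4 and 3, where 11.6%, 22.1% and 13% of all probe sets had one. The 4 and the 3 were all lower with wild-type KLU at 240 min, the direction opposite to TUA1.

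TUA6, the other alpha-tubulin gene measured, read 11.69 and 11.44 under wild-type KLU after 90 min, 11.17 and 11.06 at 240 min, and 11.52 and 11.54 in uninduced plants. Its log2 difference from uninduced was 0.04 at 90 min and -0.42 at 240 min (SE 0.13, adjusted p = 0.108 in limma's test). TUB9, a beta-tubulin gene also known from pollen, read 9.56 and 9.29 under wild-type KLU after 90 min, 9.07 and 9.33 at 240 min, and 9.21 and 9.08 in uninduced plants. Its differences from uninduced were 0.28 and 0.06 (SE 0.199), and from mutant KLU at 240 min -0.29. In the comparison with mutant KLU the beta-tubulin gene furthest from TUA1 was TUB5, with 8.46 and 9.25 under wild-type KLU at 240 min against 10.34 and 9.70 under mutant KLU, a log2 difference of -1.17 (SE 0.292, adjusted p = 0.126 in limma's test). Over the 8 probe sets the median log2 difference was 0.02 at 90 min and -0.40 at 240 min against uninduced, beside -0.02 and -0.03 over all probe sets.

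The MIKC* class had a probe set for 7 of 7 genes. Of these AGL33, AGL67 and AGL94 read at most 3.14 on any array, far below the array medians of 5.94 to 6.06, where a fall could hardly show. Besides AGL30, 0 of 6 passed limma's test in each of the same 3 comparisons, and 0 had an unadjusted p under 0.05. Among all probe sets 1.62%, 6.82% and 1.13% passed and 11.6%, 22.1% and 13% had such a p, and 0 of 6 is near these shares. Their median log2 difference was -0.02 at 90 min and -0.13 at 240 min against uninduced, and -0.06 against mutant KLU at 240 min. Among the other MADS box genes 9 of 38 listed were measured, by 10 probe sets. Of these 0 passed in any of the 3, with 1, 1 and 0 at an unadjusted p under 0.05, and their differences lay between -0.40 and 0.18.

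The genes of the dimerisation partners of AGL30 differed between the wild-type KLU lines at every time. AGL66 read 4.71, 5.89 and 4.68 at 0, 90 and 240 min in wild-type KLU line 3-1, and 4.04, 3.66 and 3.63 in line 4-3. AGL104 read 4.85, 5.23 and 4.00 in line 3-1, and 3.20, 3.09 and 3.24 in line 4-3. Line 3-1 was the higher one each time for both, and the difference at 90 min was 2.23 for AGL66 and 2.14 for AGL104, against 0.15 for AGL30. AGL65, which takes the same place in the dimer as AGL30, read between 5.04 and 5.65 over all 10 arrays. AGL33, AGL67 and AGL94 read between 2.77 and 3.14 on every array, and no array stood apart.

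**Figure D3:**
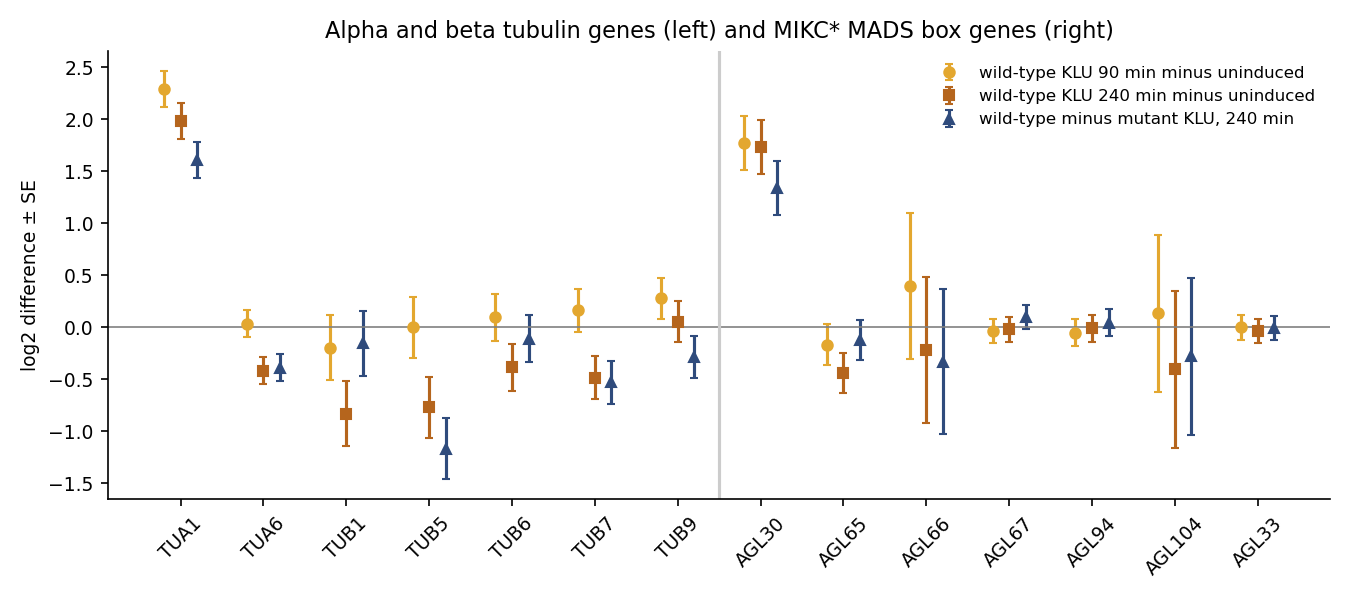
Log2 differences with their standard errors for the alpha- and beta-tubulin genes measured (left) and the MIKC* MADS box genes (right), in 3 comparisons of 2 arrays against 2. TUA1 and AGL30 are the points above 1, and the other 12 genes lie between -1.17 and 0.40.

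Because whole inflorescences were pooled, a change in the share of pollen and a change in RNA per pollen grain cannot be told apart. The part of the pollen share in the rises of TUA1 and AGL30 was not tested, and the markers are given beside them. Of 94 pollen genes listed 19 were measured, and the 17 other than TUA1 and AGL30 had medians of 5.45, 5.99 and 5.14 at 0, 90 and 240 min in wild-type KLU line 3-1. In line 4-3 the medians were 4.04, 4.20 and 3.87. With mutant KLU at 90 and 240 min they were 5.08 and 4.93 in line 1-5, and 5.34 and 4.98 in line 3-2. So line 3-1 was higher than line 4-3 by 1.41, 1.79 and 1.27 at the 3 times, while TUA1 differed between these lines by 0.15, 0.07 and -0.08, and AGL30 by 0.55, 0.15 and 0.25. By 90 min the pollen median gained 0.54 in line 3-1, where TUA1 gained 2.25 and AGL30 gained 1.57. In line 4-3 it gained 0.16, where TUA1 gained 2.33 and AGL30 gained 1.97.

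Some other pollen genes were also higher at 90 min in line 3-1, and some were lower. Over the 17 the difference between 90 and 0 min in that line lay between -1.04 (EXPA4) and 2.16 (PLIM2a). Of them 5 were more than 1 log2 unit higher at 90 min, and PLIM2a gained more than AGL30. The share of all probe sets with such a gain was not counted. EXPB5, a beta-expansin gene, gained 1.49 and AGL66 gained 1.18. In line 4-3 the 17 differed by between -0.69 and 0.35, and 0 gained more than 1.

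Of the 17 other pollen probe sets, 12 were higher in line 3-1 than in line 4-3 at all 3 times (70.6%, against 18.2% of all probe sets). AGL30 had this order too, and TUA1 did not. PLIM2a, which encodes a LIM protein that bundles actin in pollen, was the widest, with 8.16 in line 3-1 and 4.20 in line 4-3 at 90 min. MGH3, a histone gene of the male germline and the 1 sperm cell gene measured of 12 listed, read 7.02 and 4.28 on the same arrays. The uninduced arrays of these lines read 6.23 and 4.38 for MGH3.

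That no other pollen gene passed the test as higher was part of how TUA1 and AGL30 were chosen, so the following counts are a description. Of the 17, 0 passed limma's test in either direction at 90 min against uninduced, where 1.62% of all probe sets did, and 1 had an unadjusted p under 0.05, as 11.6% of all probe sets had. At 240 min 0 rose and 1 fell, where 6.82% of all probe sets passed. Against mutant KLU at 240 min 0 passed, where 1.13% of all probe sets did. The one that fell was ACT11, an actin gene of reproductive tissue, with 8.31 and 7.12 under wild-type KLU at 240 min against 9.49 and 9.16 in uninduced plants.

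**Figure D4:**
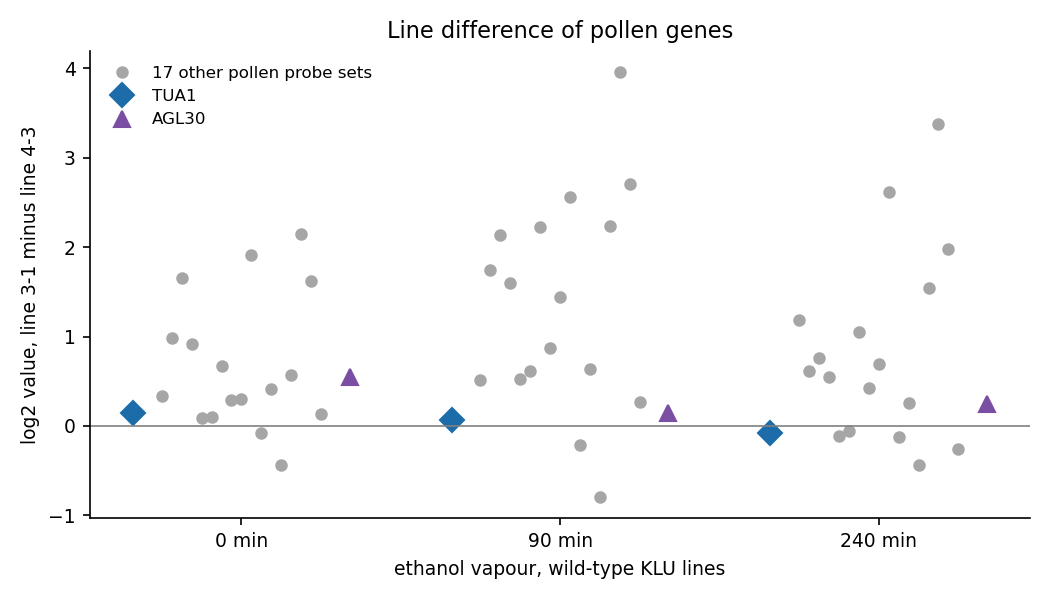
Log2 value of wild-type KLU line 3-1 minus that of line 4-3 for 19 pollen probe sets at 0, 90 and 240 min of vapour, 1 point for each probe set and time. TUA1 lies within 0.15 of 0 at each time and AGL30 between 0.15 and 0.55, while PLIM2a reaches 3.96 at 90 min.

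The genes whose pattern was most like TUA1 or AGL30 were ranked by Pearson's correlation over the 10 arrays, among 1296 other probe sets that name 1 gene and vary with an SD of at least 0.5. For these genes the arrays fall into a set of 4 with induced wild-type KLU and a set of the other 6, so the correlation mainly measures that split and it is given without a test. For TUA1 the 6 most alike were AT3G62780, AT2G32190, AT4G01870, AT3G54200, AT1G44030 and AT1G29180, with correlations between 0.968 and 0.972. For AGL30 they were AT5G09430, AT3G11880, PME61, AT2G32190, AT4G25390 and AT5G24390, between 0.982 and 0.995. PME61 encodes a pectin methylesterase, and the other 10 have no gene name in the table used. AGL30 ranked 14th for TUA1 and TUA1 26th for AGL30, with a correlation of 0.962 between them, and of 0.76 over the 6 mutant and uninduced arrays alone.

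AT5G09430, closest to AGL30, read 6.37 and 5.87 under wild-type KLU after 90 min, and 6.29 and 5.91 at 240 min. Mutant KLU line 1-5 gave 3.68 and 3.96 at these times, line 3-2 gave 4.51 and 4.46, and uninduced plants gave 3.83 and 3.32. AT3G62780, closest to TUA1, read 8.50 and 9.14 under wild-type KLU after 90 min, and 8.50 and 9.36 at 240 min. Mutant KLU line 1-5 gave 5.41 and 4.78 at these times, line 3-2 gave 6.21 and 5.58, and uninduced plants gave 3.96 and 4.57. All 11 genes named as alike had every induced wild-type KLU array above all other arrays, as 750 of 22746 probe sets did (3.3%). They were picked by their correlation with TUA1 or AGL30, which have this split, so the count follows largely from the choice and is a description.

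The 2 mutant KLU lines differed for both genes in the same direction. TUA1 was higher in line 3-2 than in line 1-5 by 0.46 at 90 min and 0.19 at 240 min, and AGL30 by 0.59 and 0.35. All 11 genes named as alike were also higher in line 3-2 at both times, as were 26.9% of all probe sets. AT1G29180 was among the widest, with 6.09 and 5.13 at 90 and 240 min in line 3-2 against 4.24 and 4.02 in line 1-5. The genes were picked for their likeness over all arrays, these included, so this is a description.

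**Figure D5:**
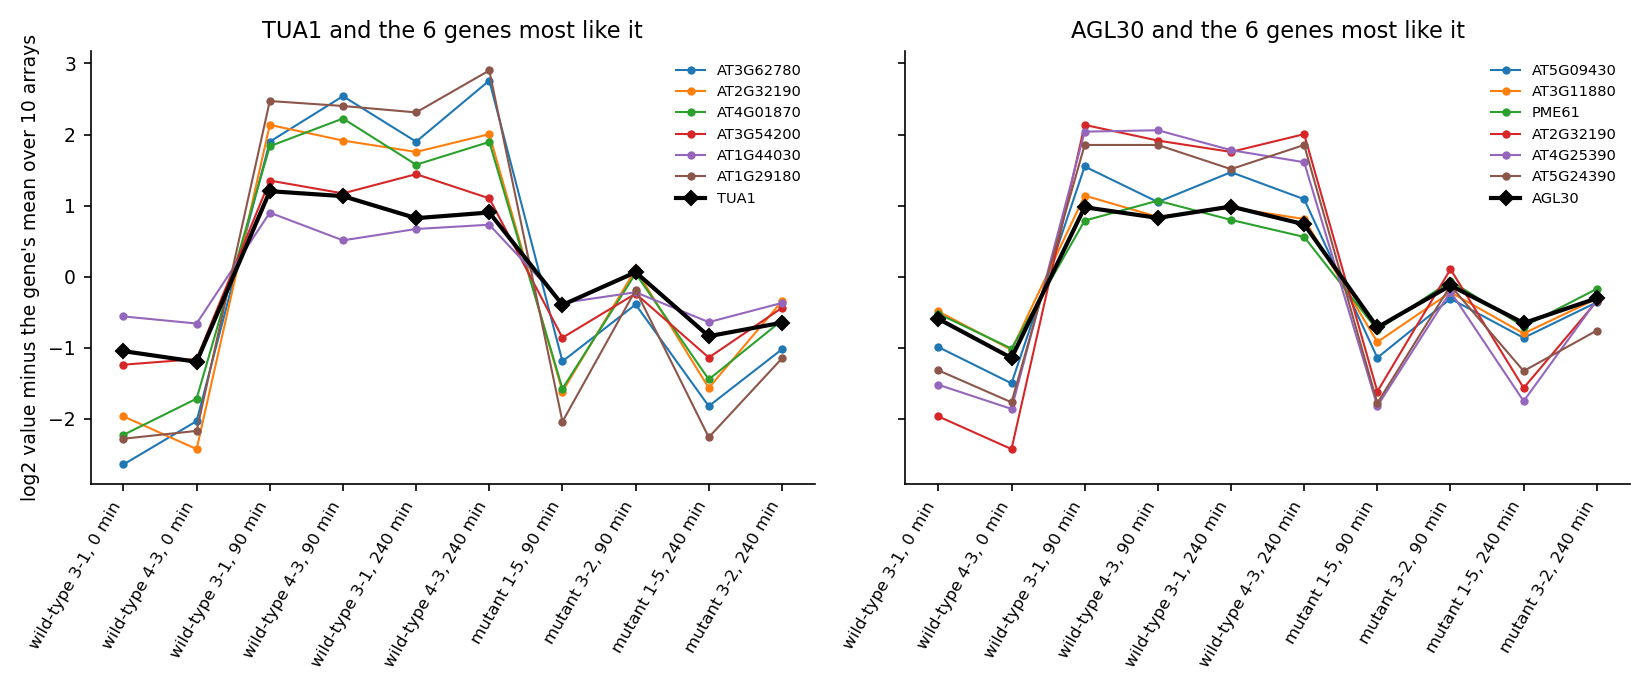
Log2 values of TUA1 (left, black) and AGL30 (right, black) and of the 6 genes most like each, on the 10 arrays, each gene centred on its own mean over the arrays. Lines join arrays for reading only. All genes shown are high on the 4 induced wild-type KLU arrays, and mutant KLU line 3-2 lies above line 1-5 at both times.

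TUA1 and AGL30 lie on different chromosomes, and none of the measured genes among the 5 on each side of them was called higher. Of the 5 protein-coding genes on each side of TUA1, 6 were measured under their names, and of those around AGL30, 4 were. The 4 all lay on the same side of AGL30, and neither EMB93 nor MED8, the genes directly beside it, was measured. Of the genes directly beside TUA1, CP5 was measured and DSS1(I) was not. In the same 3 comparisons the neighbours of TUA1 differed by between -1.19 and 0.69 and those of AGL30 by between -2.05 and 0.17. The 1 call among them in limma's test was a fall of EXPA15, an expansin gene on the far side of MED8 from AGL30, by 2.05 at 240 min against uninduced (adjusted p = 0.022). Among all probe sets 1.62%, 6.82% and 1.13% passed in these comparisons in either direction, and 1 call among so few genes is near these shares.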

How the data were processed

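RNA of 10 inflorescence pools was hybridised to Affymetrix ATH1 arrays. The authors deposited RMA values on the log2 scale, as the submitters' processing notes record without a version. The genome build and any batches are not given in the sources used here. After removal of 64 controls from 22810 probe sets, 22746 were tested. The gene table names 1 gene for 13513, several for 503 and none for 8730, so 45 of 215 listed genes were measured, and names and neighbours came from RefSeq (TAIR10.1). No sequences were printed.

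Groups came from the sample titles. Differences were tested in 1 fit of all 10 arrays with group means (limma 3.58.1, R 4.3.3), two-sided, adjusted by Benjamini-Hochberg over all probe sets, threshold 0.05. The fit was also run on simulated data with independent arrays and changes in 1 group, which does not check it for lines shared between times. The number of arrays limits the precision. Figures used matplotlib 3.10.9.

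The named genes are TUA1 and AGL30, the measured tubulin and MIKC* genes, up to 6 of other lists by size of change and the 6 most alike. Neighbours were added by position. The genes, lists and tests were chosen with earlier results of these data known.

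The labels give the same lines at every time of a construct, which pairs the arrays. The line difference correlated between times over probe sets by 0.475 to 0.633 with wild-type KLU and by 0.348 with mutant KLU. Alternatives were the line as a block (fixed within a construct, random between), a fit of only the groups compared, quantile normalization, median centring, robust and trended variances, only probe sets brighter than the median, 1 value per gene and leaving out each array.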

Additional observations from a re-analysis of the deposited data

How the results depend on the processing

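The 14 tested differences of TUA1 and AGL30 were recomputed under 17 alternatives each. The TUA1 difference of 1.61 between the constructs at 240 min lost its call with the compared groups alone (adjusted p = 0.0861), which leaves fewer arrays for the spread, and ranged from 1.51 to 1.70 when 1 array was left out. The AGL30 difference of 1.34 passed with the line as a random replicate block (adjusted p = 0.0454, correlation 0.271) and, at 1.39, with arrays centred on their medians (adjusted p = 0.0415). It did not pass with the compared groups alone (adjusted p = 0.0981 in limma's test), and ranged from 1.165 to 1.515 when 1 array was left out. The block changed no other call. The cause was not tested. At 90 min the TUA1 difference ranged from 1.11 to 1.57 without 1 array, with a call only without mutant KLU line 3-2 at 90 min. Differences of AGL30 near 0 changed sign without being called. The interaction was -0.011 under quantile normalization and -0.28 to 0.32 without 1 array, and the change from 90 to 240 min was -0.165 to 0.085 with wild-type KLU and -0.36 to 0.24 with mutant KLU. No tubulin or MADS box gene besides TUA1 and AGL30 was called in the 3 comparisons under any alternative. The rises over uninduced plants stayed between 1.91 and 2.37 for TUA1 and between 1.46 and 2.05 for AGL30. With 2 arrays a group, differences of the size of those between mutant KLU and uninduced plants cannot be told from 0 for AGL30.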

Other observations

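Markers of other tissues in the pooled inflorescences were few. Of 30 genes of the tapetum and young anther listed, AMS, SPL, EMS1 and RPG1 were measured, and their median log2 difference with wild-type KLU at 240 min against uninduced plants was -0.56, with 0 of 4 past limma's threshold and 1 with an unadjusted p under 0.05, where 6.82% of all probe sets passed and 22.1% had an unadjusted p under 0.05. Of 18 inflorescence genes listed, CLV3, UFO and SPT were measured, and 0 of 3 passed in that comparison, with a median of -0.24 and 0 with an unadjusted p under 0.05. CLV3 and UFO, genes of the shoot and floral meristem, read between 3.24 and 3.87 on all 10 arrays, and SPT, a gynoecium gene, between 6.15 and 7.05.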
